A study of Mus musculus with 32 samples.

Results

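The genes described here are 40 sarcomere and cardiomyocyte genes, chosen by name from a table of 3′ tag counts with 55414 Ensembl gene identifiers. Each symbol matched 1 identifier. They comprise 7 thick filament genes, 7 thin filament genes, 8 scaffold and Z-disc genes, 5 calcium handling genes, 4 chaperones, 4 regulators of the muscle program, 2 peptide hormones and 3 other muscle genes. The table holds 32 libraries of whole mouse embryos, freed of their yolk sacs, collected on the embryonic days E8.5, E9.5 or E10.5. WT embryos gave 10, 9 and 4 libraries at these stages, and *Commd10*Null embryos gave 3 at each stage. *Commd10*Null embryos were homozygous for a *Vav1-iCre* transgene that had landed in the intron after exon 5 of *Commd10* and abolished the gene's function, so the loss comes from the insertion and not from recombination in the cells in which *Vav1* is active. WT embryos carry no insertion, and both genotypes came from matings of heterozygous mice. COMMD10 belongs to a family of proteins with roles in endosomal sorting, and the study asked which developmental programs are disturbed when it is missing. Mutant embryos were visibly abnormal at E8.5 and were being degraded and resorbed at E9.5 and E10.5, which limits them as a model of heart development. The study's methods call the replicates biological, but the sources do not say whether a library is 1 embryo or which litter it came from, so p-values measure the spread between these libraries.

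Heart muscle contracts when thick filaments of myosin pull on thin filaments of actin, tropomyosin and troponin inside the sarcomere, with titin and the proteins of the Z-disc as its scaffold. Calcium released from the sarcoplasmic reticulum through the ryanodine receptor binds troponin and starts each contraction, and the calcium pump takes it back up under the control of phospholamban. In the mouse the linear heart tube forms and begins to beat at about the earliest of these stages, and the tube then loops and its atrial and ventricular chambers balloon out. Many sarcomere genes switch on together as cardiomyocytes differentiate, whereas others, such as the atrial hormone gene *Nppa*, mark the chamber muscle that forms later. Smooth and skeletal muscle share some of these genes, and *Acta2* and *Tagln* are known foremost from smooth muscle.

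The libraries held 7025188 to 9069005 counts each, and scaling factors from the trimmed mean of M-values (TMM) lay between 0.8966 and 1.117. A single identifier without a symbol took 15.0% to 22.8% of all counts in the E8.5 libraries and 17.3% to 22.1% in the *Commd10*Null libraries of the later stages, against 2.98% to 8.83% in the WT libraries of E9.5 and E10.5. *Commd10* itself was counted at a higher level in *Commd10*Null embryos, by 1.02, 0.69 and 0.84 on the log2 scale at the 3 stages. A tag near the 3′ end lies past the insertion and does not check the knockout. Among 96 pairs of libraries of the same group, none agreed within sampling noise. Levels are given as CPM, in which a gene's counts are divided by the TMM-scaled total of its library, and changes are log2 ratios from edgeR's quasi-likelihood test with Benjamini-Hochberg adjustment over all genes tested, called at an adjusted p below 0.05. The filter on low counts kept 33 of the 40 members in every comparison, and *Nppb* in none.

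The start regions of the members were read from RefSeq promoters of build GRCm38.p6, which run from 250 bases before to 50 bases after a start site. Of the 40 members, 33 matched by symbol, with 42 promoters. A CArG box, the name of the sequence bound by serum response factor, occurred in 7 of these 42 promoters (16.7%), which belong to *Nebl*, *Actc1*, *Myl3*, *Myl7*, *Ldb3* and *Myom1*, and in 1.63% of all 32851 promoters. The MEF2 site, searched by its consensus of that name, occurred in 3 promoters (7.14%), those of *Ttn*, *Mybpc3* and *Casq2*, and in 3.19% of all. AGGTGT, a T-box core, occurred in 8 (19.0%, 13.7% of all), those of *Tnni1*, *Nebl*, *Nppa*, *Tnni3*, *Csrp3*, *Unc45b* and *Rbm24*. AGATAA, bound by factors of the GATA family, occurred in 10 (23.8%, 11.2% of all). These belong to *Tnnt2*, *Nebl*, *Nppb*, *Myl2*, *Pln*, *Popdc2*, *Myom1*, *Slc8a1* and *Ankrd1*. Both motifs thus also occur in promoters of members that were higher at E10.5, such as *Nebl*. All motifs were searched on both strands, and a match describes letters and not a bound site. For the GATA family, no form other than AGATAA was searched. The 4 promoters printed here belong to genes that stand for opposite behaviours in the results, *Actc1* and *Myl7* among those higher in E10.5 *Commd10*Null embryos and *Nppa* and *Pln* among those lower. The *Actc1* promoter lies at chr2:114052826-114053125 on the minus strand, with the CArG box in capitals.
Actc1: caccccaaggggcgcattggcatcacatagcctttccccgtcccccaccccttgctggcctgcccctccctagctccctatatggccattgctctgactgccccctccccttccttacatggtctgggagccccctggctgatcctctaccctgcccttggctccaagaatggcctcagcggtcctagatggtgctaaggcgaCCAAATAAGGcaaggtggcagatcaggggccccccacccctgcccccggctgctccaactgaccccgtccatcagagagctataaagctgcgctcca
The *Myl7* promoter lies at chr11:5898733-5899032 on the minus strand, again with the CArG box in capitals.
Myl7: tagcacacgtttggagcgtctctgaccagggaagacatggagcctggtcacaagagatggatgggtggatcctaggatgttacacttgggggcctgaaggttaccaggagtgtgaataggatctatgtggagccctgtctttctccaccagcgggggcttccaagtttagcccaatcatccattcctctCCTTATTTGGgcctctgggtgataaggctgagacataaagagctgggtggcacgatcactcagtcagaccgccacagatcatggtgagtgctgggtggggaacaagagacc
The *Nppa* promoter lies at chr4:148000472-148000771 on the plus strand, with the T-box core, read here on the other strand, in capitals.
Nppa: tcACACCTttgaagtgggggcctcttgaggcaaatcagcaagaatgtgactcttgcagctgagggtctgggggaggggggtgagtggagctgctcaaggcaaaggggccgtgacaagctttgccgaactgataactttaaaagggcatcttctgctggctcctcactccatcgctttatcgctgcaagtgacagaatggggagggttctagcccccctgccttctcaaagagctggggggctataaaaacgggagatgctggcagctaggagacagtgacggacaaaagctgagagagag
The *Pln* promoter lies at chr10:53337436-53337735 on the plus strand, with AGATAA, also read on the other strand, in capitals.
Pln: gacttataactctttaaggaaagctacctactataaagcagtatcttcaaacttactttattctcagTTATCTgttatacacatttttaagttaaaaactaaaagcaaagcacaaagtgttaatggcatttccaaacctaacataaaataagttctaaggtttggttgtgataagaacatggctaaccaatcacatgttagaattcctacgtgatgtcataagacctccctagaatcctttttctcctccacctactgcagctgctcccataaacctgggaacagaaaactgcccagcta
The boxes of *Actc1* and *Myl7* are reverse complements of each other, and within each of the 4 promoters the capitals overlap no match to the other 3 motifs.

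**Figure D1:**
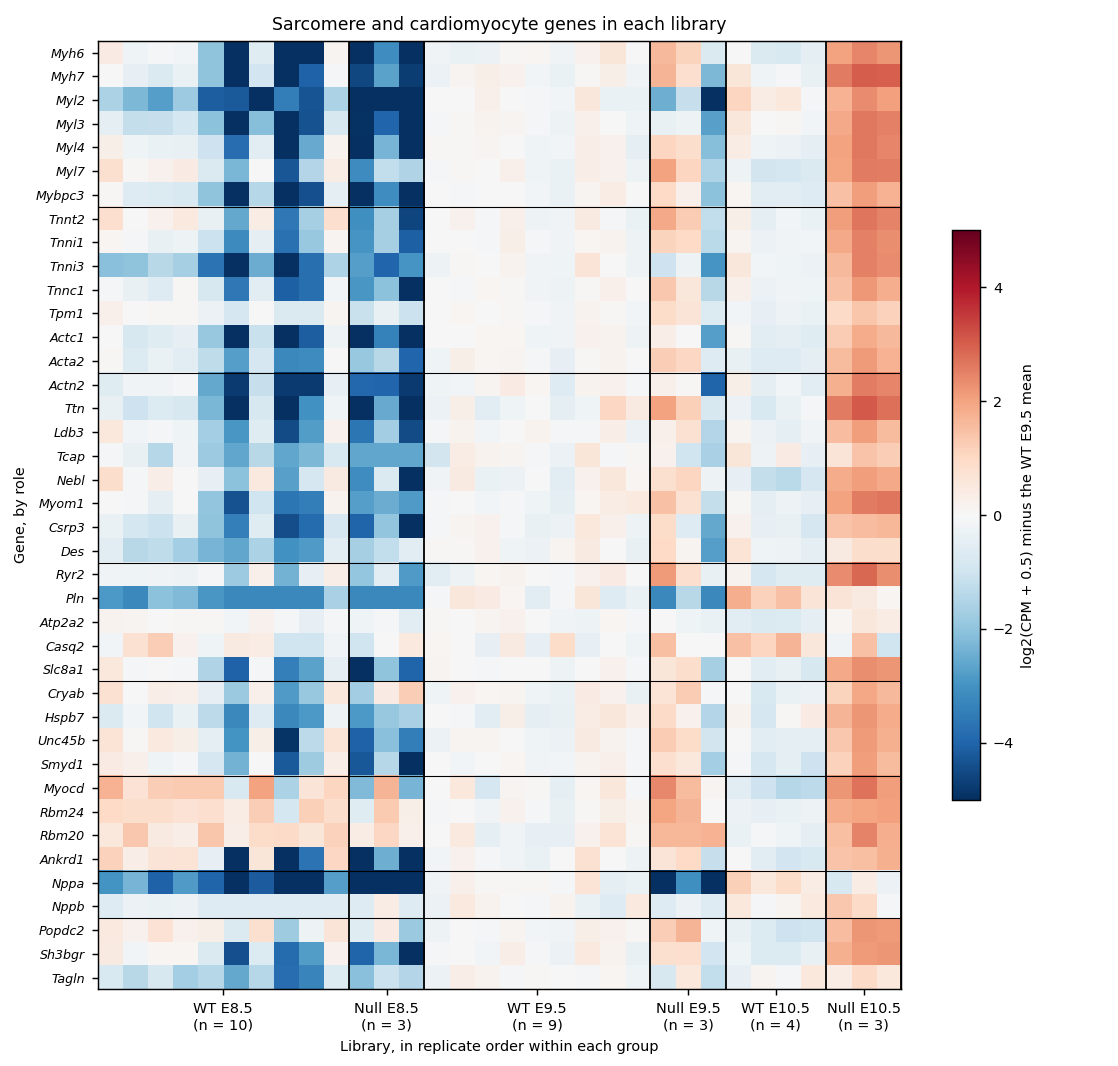
Heat map of the 40 members (rows, by role) in the 32 libraries (columns, by genotype and stage), showing log2(CPM + 0.5) minus the mean of the WT E9.5 libraries, with colours clipped at 5 log2 units either way. The 3 *Commd10*Null E8.5 libraries are low in most rows, the 3 *Commd10*Null E9.5 libraries differ from each other, and the 3 *Commd10*Null E10.5 libraries are high in most rows.

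In WT embryos the module was already expressed at E8.5, but not evenly. The summed level of the 40 members ranged from 752.2 to 3966 CPM over the 10 WT E8.5 libraries, with a median of 2689. WT replicates 6, 8 and 9 stood apart at 834.8, 752.2 and 992.6 CPM, as low as *Commd10*Null embryos, and lay below their group's median in 37, 36 and 36 of the 37 members tested. The 9 WT E9.5 libraries were closer together, at 2985 to 3986 CPM, and the 4 WT E10.5 libraries held 2515 to 3520 CPM.

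From E8.5 to E9.5 in WT embryos, 13 of 38 members tested rose and 3 fell, beside 25.3% of all 12718 genes that rose and 25.9% that fell. The largest increases were in *Pln*, which encodes the calcium pump inhibitor phospholamban (4.08 ± 0.50 SE, adjusted p = 4.16e-07), *Nppa*, which encodes atrial natriuretic peptide (3.95 ± 0.41 SE, adjusted p = 3.43e-08), *Myl2*, the ventricular regulatory light chain (2.71 ± 0.36 SE, adjusted p = 1.32e-06), and *Tnni3*, the adult cardiac troponin I (2.55 ± 0.41 SE, adjusted p = 1.76e-05). The others that rose were *Myl3*, *Mybpc3*, *Acta2*, *Ttn*, *Tcap*, *Csrp3*, *Des*, *Hspb7* and *Tagln*. The 3 that fell were regulators: *Myocd*, a coactivator of serum response factor (-1.09), and the RNA-binding proteins *Rbm24* (-0.82) and *Rbm20* (-0.95), both known for splicing muscle transcripts. From E9.5 to E10.5, 4 of 39 rose (*Casq2* by 1.78, *Pln* by 1.36, *Nppa* by 0.77 and *Myl2* by 0.52) and 15 fell, beside 13.0% and 13.4% of all 13355 genes. The 15 that fell included *Myocd* (-1.23), *Nebl* (-0.96), *Popdc2* (-0.78) and *Myl7* (-0.69). With all 32 libraries in 1 model, this later step had 0 members higher and 1 lower, and without WT E10.5 replicate 2 or 3 the count of members that fell was 8 or 9.

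At E8.5 most members were at lower levels in *Commd10*Null than in WT embryos, but few passed the test. *Myl7*, the atrial regulatory light chain and an early marker of the heart tube, was at 11.1 to 398 CPM in WT embryos (median 230) and at 25.1, 94.8 and 79.6 CPM in *Commd10*Null embryos. *Actc1*, cardiac actin, was at 9.59 to 823 CPM in WT (median 435) and at 8.01, 80.8 and 7.77 CPM in *Commd10*Null embryos. The *Myl7* values of *Commd10*Null embryos lay within the WT range, while for *Actc1* replicates 1 and 3 lay just below the lowest WT library and replicate 2 within the range. The genotype difference was -1.58 ± 0.72 SE for *Myl7* (adjusted p = 0.147) and -3.59 ± 1.23 SE for *Actc1* (adjusted p = 0.0601). Of 37 members tested, 3 were lower and 0 higher, and 6.86% of all 13799 genes were lower. That share is close to the background. The 3 were *Myl2* (-3.28 ± 0.88 SE, adjusted p = 0.0221), *Tnnt2*, cardiac troponin T (-2.65 ± 0.82 SE, adjusted p = 0.0417), and *Unc45b*, a myosin chaperone (-3.21 ± 1.02 SE, adjusted p = 0.0460). The estimates were negative for 34 of the 37, with a median of -2.19 against -0.02 over all genes tested. At an unadjusted p below 0.05, 26 members were lower, beside 4126 of all 13799 genes with either direction. No member's 3 *Commd10*Null libraries all lay below all 10 WT libraries, beside 4.07% of all genes.

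The count of 3 depended on single libraries. Without WT replicate 8 it was 21 and without WT replicate 6 it was 15, while without *Commd10*Null replicate 1 or 3 it was 0. WT replicate 9 (12 members without it) and *Commd10*Null replicate 2 (11) also moved it, and without any 1 of the other 7 WT libraries it was 1. DESeq2 called 11, and 1 model of all 32 libraries called 23. No share of all genes is given for these settings, so a general change in calls is not separated from a change in the members. *Nppa* and *Tcap*, the titin cap, had 0 counts in all 3 *Commd10*Null libraries, but their WT medians were also low, at 0.895 and 0.624 CPM. *Myl2* was at 1.27 to 25.8 CPM in WT (median 8.77) and at 1.49, 1.15 and 1.03 CPM in *Commd10*Null embryos, so all 3 lay at or near the bottom of the WT range.

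The 3 members without a negative estimate were *Des*, *Cryab* and *Tagln* (0.01 ± 0.58 SE). *Des*, the intermediate filament desmin, was at 9.10, 12.4 and 19.9 CPM in *Commd10*Null against a WT median of 9.28, and *Cryab*, a small heat shock protein, at 9.64, 44.6 and 79.7 CPM against 36.7. *Rbm24*, with a small negative estimate (-0.28 ± 0.35 SE, adjusted p = 0.645), was at 15.9, 62.5 and 30.0 CPM against 45.8. Of 18 cardiac transcription factors tested, 4 were higher in *Commd10*Null embryos (*Gata4* by 0.94, *Tbx3* by 1.01, *Srf* by 1.32 and *Hand1* by 0.88) and 1, *Tbx18*, was lower (-2.61). The share of all genes that were higher at E8.5 is not given here. Neither this count nor the counts of higher markers that follow are therefore set against a background. Markers of other tissues also differed. The summed visceral endoderm markers, 11 genes of the extraembryonic layer, were at 5557, 3906 and 5806 CPM in *Commd10*Null embryos and at 433.4 to 4306 CPM in WT, with the 3 low WT libraries at 4306, 2713 and 2869, and 2 of 11 markers passed the test. The summed decidua and leukocyte markers were at 57.44, 168.2 and 280.8 CPM against 2.158 to 50.5 CPM, and 5 of 7 tested were higher. Of the erythroid genes, 5 of 6 tested were higher, with summed levels of 2155, 681.6 and 12.02 CPM against 11.75 to 448.6 CPM, so that replicate 3 lay within the WT range. Of the trophoblast genes, 1 of 3 tested was higher, with summed levels of 42.5, 32.79 and 29.02 CPM against 6.511 to 25.41 CPM. Their part in the result was not tested. In whole embryos, fewer cardiomyocytes and less RNA per cardiomyocyte cannot be told apart.

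**Figure D2:**
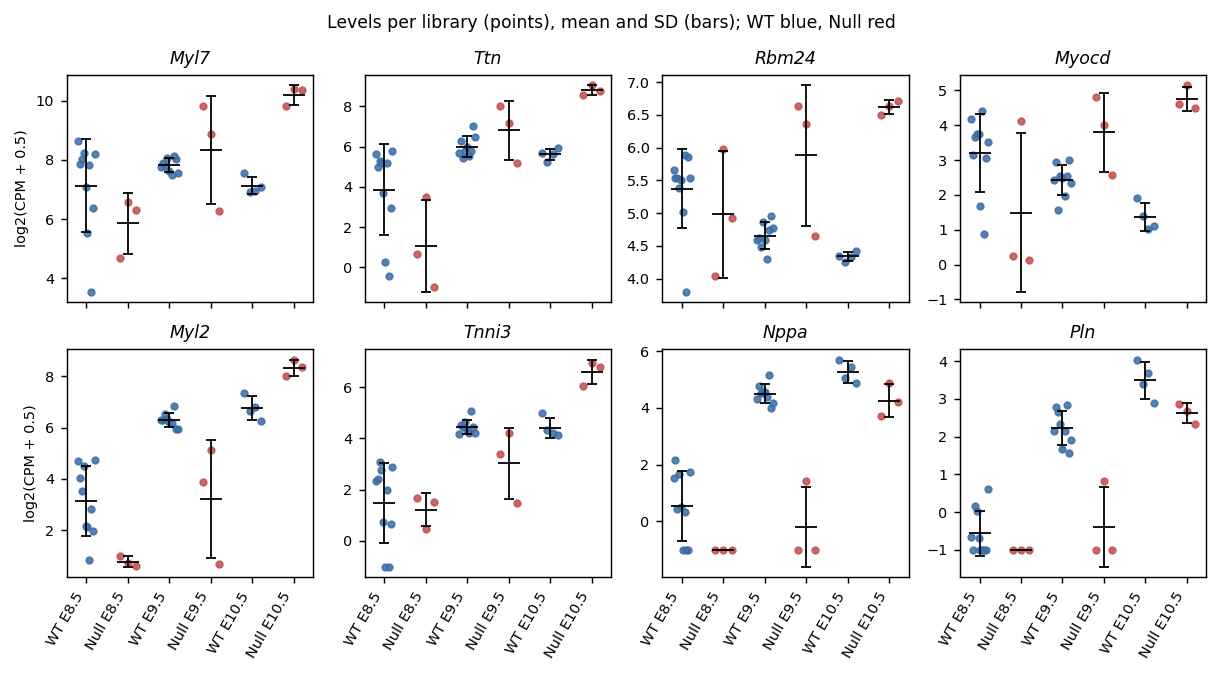
Level of 8 members in every library (points, log2 of CPM + 0.5) by genotype and stage, with the mean and SD of each group as bars. *Myl7*, *Ttn*, *Rbm24* and *Myocd* are higher in *Commd10*Null than in WT embryos at E10.5, while *Nppa* and *Pln* are lower at E9.5 and E10.5.

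At E9.5 the members moved in both directions, with 3 of the 4 regulators among those higher in *Commd10*Null embryos and *Nppa*, *Pln*, *Myl2* and *Tnni3* lower. Of 38 members tested, 11 were higher and 4 lower, beside 20.2% of all 13483 genes that were higher and 17.4% that were lower. The share that was higher is 11 of 38 and the median member stood at 0.46 against 0.02 over all genes. *Rbm24* was at 19.3 to 30.5 CPM in WT (median 24.1) and at 99.3, 81.4 and 24.7 CPM in *Commd10*Null embryos (1.48 ± 0.26 SE, adjusted p = 0.000393). *Myocd* was at 2.49 to 7.45 CPM in WT (median 5.05) and at 27.6, 15.6 and 5.43 CPM (1.70 ± 0.36 SE, adjusted p = 0.00167). For both, *Commd10*Null replicates 1 and 2 lay above every WT library and replicate 3 lay within the WT range. *Rbm20* was the only member whose 3 *Commd10*Null libraries, at 7.65, 7.80 and 8.32 CPM, all lay above the WT libraries, at 1.37 to 3.72 CPM (1.87 ± 0.29 SE, adjusted p = 0.000148).

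The filament genes that were higher were *Myh6*, the α myosin heavy chain (0.99 ± 0.31 SE), *Myl7* (1.12 ± 0.39 SE), *Tnnt2* (1.15 ± 0.36 SE), *Acta2*, smooth muscle actin that early heart muscle also uses (0.76 ± 0.25 SE), and *Ttn*, titin (1.15 ± 0.39 SE), with adjusted p between 0.0190 and 0.0324. *Ryr2*, the ryanodine receptor (1.27), *Cryab* (0.73) and *Popdc2*, a membrane protein of heart and skeletal muscle (1.13), complete the 11. *Myl7* was at 907, 473 and 77.3 CPM in *Commd10*Null embryos and at 180 to 281 CPM in WT (median 223). *Ttn* was at 260, 144 and 36.2 CPM against 42.8 to 130 CPM (median 54.5). *Popdc2* was at 64.3, 90.5 and 23.3 CPM against 22.9 to 33.5 CPM (median 27.2). In *Myl7* and *Ttn*, replicates 1 and 2 were above and replicate 3 below all WT libraries. None of the calls of *Myh6*, *Myl7*, *Tnnt2*, *Acta2* and *Ttn* held without replicate 1 or without replicate 2. Without replicate 1 their estimates were 0.48, 0.29, 0.51, 0.42 and 0.44, with adjusted p between 0.209 and 0.559. *Ryr2* lost its call without replicate 1 (0.37) and *Cryab* without replicate 2 (0.35).

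The 4 members that were lower were *Nppa*, *Pln*, *Myl2* and *Tnni3*, the same 4 with the largest increases from E8.5 to E9.5 in WT embryos, a comparison that shares the WT E9.5 libraries with this one. *Nppa* was at 15.6 to 35.5 CPM in WT (median 22.8) and at 0, 2.17 and 0 CPM in *Commd10*Null embryos (-4.91 ± 0.63 SE, adjusted p = 3.12e-05). *Pln* was at 2.48 to 6.60 CPM in WT (median 3.93) and at 0, 1.28 and 0 CPM (-3.29 ± 0.73 SE, adjusted p = 0.00247). *Myl2* was at 60.8 to 114 CPM in WT (median 78.4) and at 14.1, 34.4 and 1.09 CPM (-2.23 ± 0.53 SE, adjusted p = 0.00397). In each of these genes all *Commd10*Null libraries lay below all WT libraries. How many of all genes had groups without overlap at E9.5, in either direction, is not given here. The separation, like that of *Rbm20*, therefore describes single genes only. *Tnni3*, at 9.97, 17.8 and 2.29 CPM against 17.6 to 33.4 CPM, overlapped in replicate 2 (-1.08 ± 0.38 SE, adjusted p = 0.0371).

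*Commd10*Null E9.5 replicate 3 differed from replicates 1 and 2 throughout the module, with a summed level of 1438 CPM against 6606 and 5169. Without it, 26 members were higher and 3 lower, the latter *Nppa* (-4.31), *Pln* (-2.70) and *Myl2* (-1.68). Without replicate 1, or without replicate 2, 5 members were higher and 6 lower. *Myocd*, *Rbm24*, *Rbm20* and *Popdc2* were among those higher each time. The decreases of *Nppa*, *Pln* and *Myl2* passed the test without any 1 of the 3. Mitochondrial genes took 3.65% of its counts, against 1.90% and 1.77% in replicates 1 and 2 and 3.29% to 4.22% in WT. Replicate 3 also had the highest visceral endoderm markers, at 6414 CPM against 495.8 and 915 in the other *Commd10*Null libraries and 33.91 to 158.7 in WT, and the highest trophoblast markers, at 368 CPM against 11.34 and 87.04. Decidua and leukocyte markers were highest in replicate 2, at 140.2 CPM against 5.192 and 9.406. All 11 visceral endoderm markers were higher in *Commd10*Null embryos at this stage, beside 20.2% of all genes. The part of these markers in the result was not tested. With all 32 libraries in 1 model, 5 members were higher (*Ryr2*, *Myocd*, *Rbm24*, *Rbm20* and *Popdc2*) and 3 lower. These alternative counts have no share of all genes beside them.

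**Figure D3:**
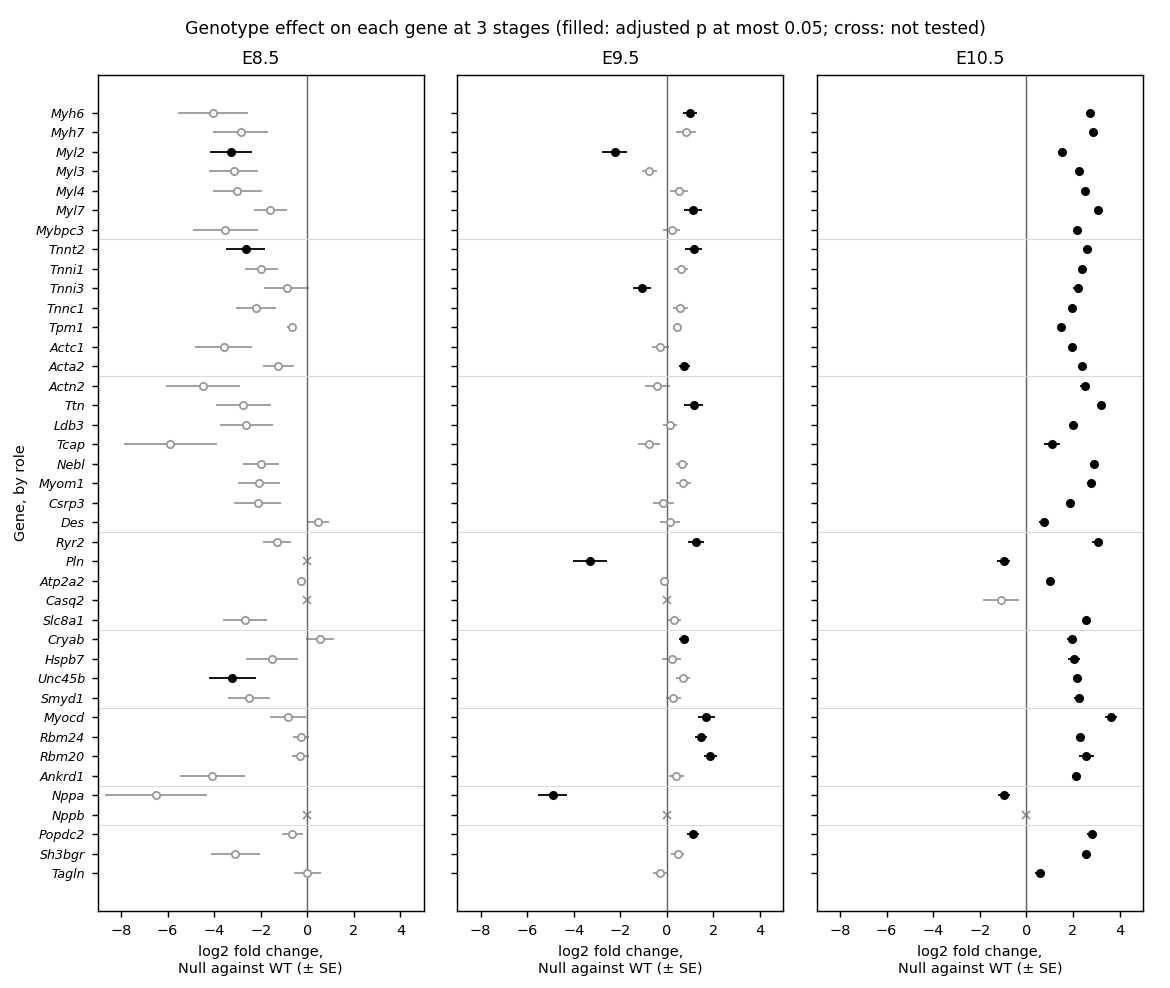
Log2 fold change of *Commd10*Null against WT embryos for each member in the 3 stages (points, with bars of 1 SE), filled for members that passed the test and crossed for those not tested. Medians over the members tested were -2.19, 0.46 and 2.25, and at E10.5 *Nppa* and *Pln* passed the test on the lower side.

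At E10.5 nearly the whole module was higher in *Commd10*Null embryos. Of 39 members tested, 36 were higher and 2 lower, beside 20.9% of all 13522 genes that were higher and 21.4% that were lower. With a difference of at least 1 on the log2 scale required as well, 34 members were higher, beside 6.88% of all genes, and *Des* (0.75) and *Tagln* (0.57) were no longer counted. The median member stood at 2.25, against 0.01 over all genes. In 34 members the 3 *Commd10*Null libraries all lay above the 4 WT libraries, beside 22.1% of all genes. The summed level was 9608, 14080 and 12240 CPM, or 0.979% to 1.39% of counts, against 2515 to 3520 CPM, or 0.271% to 0.393%. Mitochondrial genes took 1.64% to 1.78% of counts in these *Commd10*Null libraries and 3.38% to 4.29% in WT, and their part in the result was not tested. The mutant embryos were being resorbed, and levels are shares of all counts. In whole embryos, a larger share of cardiomyocytes and more RNA per cardiomyocyte cannot be told apart, here or at E9.5.

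All 7 thick filament genes were higher. *Myl7* was at 895, 1357 and 1330 CPM in *Commd10*Null embryos and at 187, 121, 123 and 137 CPM in WT (3.08 ± 0.16 SE, adjusted p = 4.94e-09). *Myh6* was at 204, 277 and 237 CPM against 49.3, 30.0, 29.6 and 36.6 CPM (2.72 ± 0.15 SE, adjusted p = 9.32e-09), and its neighbour *Myh7*, the β heavy chain, at 222, 304 and 295 CPM against 56.0, 31.7, 34.3 and 28.5 CPM (2.87 ± 0.18 SE, adjusted p = 2.96e-08). The 2 heavy chain genes lie side by side on the minus strand of chromosome 14, at 54941921 to 54966927 and 54970684 to 54994626 in GRCm38. The lowest *Commd10*Null library exceeded the highest WT library severalfold in all 3 genes. *Myl4*, the atrial essential light chain, was at 387, 598 and 529 CPM against 68.9 to 124 CPM (2.51 ± 0.17 SE, adjusted p = 6.79e-08), and *Myl3*, the ventricular essential light chain, at 484, 818 and 756 CPM against 119 to 191 CPM (2.25 ± 0.17 SE, adjusted p = 1.44e-07). *Myl2* had the smallest change of the 7, at 259, 401 and 326 CPM against 165, 101, 112 and 75.3 CPM (1.54 ± 0.20 SE, adjusted p = 2.27e-05). *Mybpc3*, a myosin-binding protein of the thick filament, was at 2.19.

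The 7 thin filament genes were all higher, by 1.47 (*Tpm1*, tropomyosin) to 2.59 (*Tnnt2*). *Acta2* was at 893, 1295 and 993 CPM in *Commd10*Null embryos against 231, 191, 190 and 216 CPM in WT (2.37 ± 0.11 SE, adjusted p = 2.85e-09). *Tnni1*, the slow skeletal troponin I that the embryonic heart uses, was at 288, 451 and 392 CPM against 62.5 to 85.3 CPM (2.41 ± 0.14 SE, adjusted p = 9.32e-09), and *Tnni3* at 65.8, 122 and 110 CPM against 17.0 to 31.2 CPM (2.21 ± 0.21 SE, adjusted p = 1.69e-06). The groups were apart in each of these genes.

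The 8 scaffold and Z-disc genes were also all higher. *Ttn* was at 382, 534 and 433 CPM against 51.4, 37.7, 49.7 and 59.4 CPM (3.19 ± 0.14 SE, adjusted p = 1.50e-09). *Nebl*, which encodes the Z-disc protein nebulette, was at 94.3, 113 and 96.6 CPM against 9.91 to 19.2 CPM (2.90 ± 0.17 SE, adjusted p = 1.48e-08). *Myom1*, which encodes the M-band protein myomesin, was higher by 2.75, *Actn2*, sarcomeric α-actinin, by 2.51, and *Tcap* and *Des* by 1.11 and 0.75. In *Des* the groups overlapped, at 41.6, 55.9 and 55.4 CPM against 21.5 to 49.1 CPM.

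Calcium handling genes divided. *Ryr2* was at 43.8, 63.3 and 43.4 CPM in *Commd10*Null embryos against 4.39 to 9.28 CPM in WT (3.05 ± 0.22 SE, adjusted p = 9.67e-08). *Slc8a1*, the sodium-calcium exchanger, was at 142, 194 and 175 CPM against 21.7 to 37.9 CPM (2.57 ± 0.15 SE, adjusted p = 1.48e-08), and *Atp2a2*, the calcium pump of the sarcoplasmic reticulum, was higher by 1.00. *Pln*, which restrains that pump, was lower, at 6.76, 5.93 and 4.53 CPM against 15.9, 10.0, 12.2 and 6.85 CPM (-0.97 ± 0.28 SE, adjusted p = 0.0122), with all 3 *Commd10*Null libraries just below the lowest WT library. *Casq2*, the calcium store protein calsequestrin, was at 0.368, 2.22 and 0 CPM against 0.945 to 2.68 CPM (-1.08 ± 0.77 SE, adjusted p = 0.285). Thus the exchanger, the release channel and the pump were higher while the pump's inhibitor was lower, and the calcium store protein did not pass the test.

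*Nppa* was the other member that was lower, at 12.5, 28.7 and 17.9 CPM against 51.5, 32.3, 42.4 and 28.6 CPM (-0.97 ± 0.25 SE, adjusted p = 0.00574), with *Commd10*Null replicate 2 just inside the WT range. Neither *Nppa* nor *Pln* passed the test with all 32 libraries in 1 model, and *Pln* did not pass without *Commd10*Null replicate 3. *Nppb*, the second natriuretic peptide gene, was at 1.47 CPM or less in every library and was not tested at any stage. The chaperones were all higher, by 1.94 (*Cryab*) to 2.26 (*Smyd1*, a muscle methyltransferase that helps myosin fold). *Unc45b* was at 38.4, 65.6 and 51.9 CPM against 9.68 to 15.0 CPM. The regulators were higher by 2.12 (*Ankrd1*, a cardiac ankyrin repeat protein) to 3.65 (*Myocd*), the largest change among the 39. *Myocd* was at 24.1, 35.2 and 22.1 CPM against 3.27, 2.14, 1.52 and 1.65 CPM, and *Rbm24* at 90.0, 99.4 and 105 CPM against 19.9, 18.6, 19.7 and 20.9 CPM (2.32 ± 0.10 SE, adjusted p = 1.57e-09). *Popdc2* was at 80.6, 130 and 123 CPM against 12.9 to 21.1 CPM, and *Sh3bgr*, a small protein of heart and skeletal muscle, at 119, 152 and 161 CPM against 20.8 to 29.2 CPM (2.57 ± 0.13 SE, adjusted p = 4.94e-09).

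Other lists placed these values in context. Beside the E10.5 counts of this paragraph, 20.9% of all genes tested were higher and 21.4% lower. Of 38 further contractile and cardiac muscle genes, 34 were tested at E10.5, and 27 were higher and 1, *Sln*, was lower. *Nexn* and *Acta1* were both at 2.14, *Synpo2l* at 2.24 and *Pdlim5* at 1.53. At E9.5, 11 of 33 were higher, among them *Fabp3* (2.69), *Alpk2* (2.01) and *Fhl2* (1.37), and 4 were lower, among them *Smpx* (-2.96). At that stage, 20.2% of all genes tested were higher and 17.4% lower. Of 18 cardiac transcription factors, 14 were higher at E10.5 (*Nkx2-5* by 3.34, *Tbx20* by 3.19, *Hopx* by 3.18 and *Gata5* by 2.92) and 2, *Tbx18* and *Tbx2*, were lower. Skeletal muscle genes went the other way. Of 11 tested at E10.5, 8 were lower and 0 higher, *Myog*, the skeletal muscle regulator myogenin, had 0 counts in all 3 *Commd10*Null libraries against a mean of 18.2 CPM in WT, and the summed level was 23.21 to 25.58 CPM against 71.02 to 123 CPM. Smooth muscle genes were higher in 5 of 8 tested, with summed levels of 565.5 to 776.1 CPM against 406.5 to 472.1 CPM. All 8 erythroid genes were lower, at 2177 to 3619 CPM against 12810 to 22130 CPM. Visceral endoderm markers were at 81.33 to 176.8 CPM against 65.99 to 74.27 CPM in WT, apart from WT replicate 1 at 1235 CPM. The part of the erythroid, smooth muscle and visceral endoderm genes in the result was not tested.

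**Figure D4:**
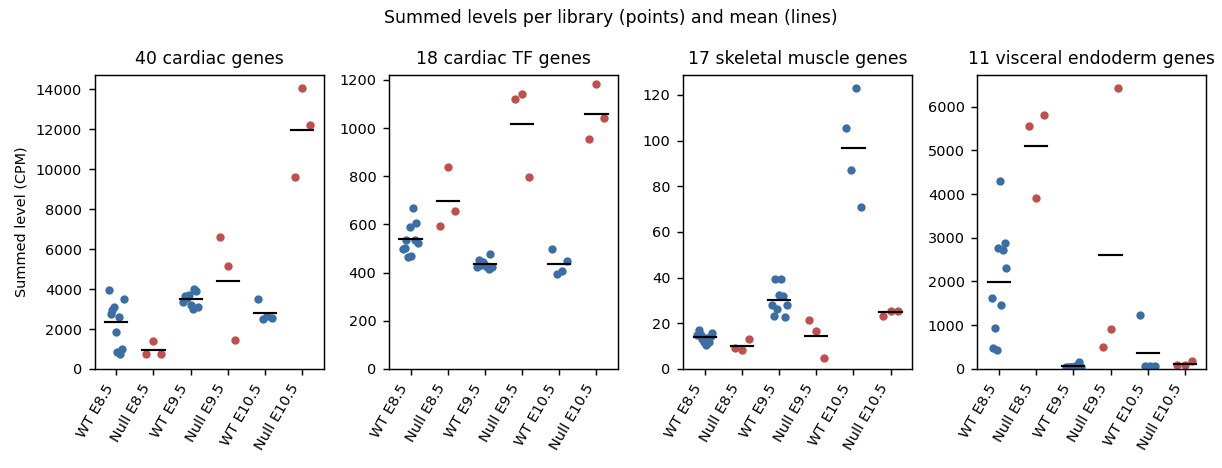
Summed level of the 40 members, of 18 cardiac transcription factors, of 17 skeletal muscle genes and of 11 visceral endoderm genes in every library (points, CPM, axes from 0) by genotype and stage, with lines at the group means. The members reach 9608 to 14080 CPM in *Commd10*Null E10.5 embryos against 2515 to 3520 CPM in WT. Visceral endoderm markers are highest in *Commd10*Null E9.5 replicate 3 and *Commd10*Null E8.5 replicates 1 and 3. WT E8.5 replicate 6, at 4306 CPM, lies above *Commd10*Null E8.5 replicate 2, at 3906 CPM.

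Within *Commd10*Null embryos the module was at higher levels at each later stage, but no member passed the test in either step by edgeR's quasi-likelihood test. From E8.5 to E9.5, 0 of 33 members tested were higher, beside 0% of all 12856 genes. At an unadjusted p below 0.05, 27 members and 661 of all genes with either direction were counted, and DESeq2 called 8 members. In 20 members the 3 E9.5 libraries all lay above the 3 E8.5 libraries, beside 6.62% of all genes, and the median estimate was 3.25. From E9.5 to E10.5, 0 of 38 were higher, beside 0.0232% of all 12905 genes. Here 28 members and 1409 of all genes had an unadjusted p below 0.05, DESeq2 called 10 members, and 30 members did not overlap, beside 10.9% of all genes. The estimates for *Nppa* (4.74), *Myl2* (4.32), *Pln* (3.70) and *Tnni3* (3.32) were the largest of this step. Replicate 3 of E9.5 bore on both steps: without it the counts of members higher were 20 and 8. Without replicate 2 of E9.5, 1 member was higher in the later step. All 32 libraries in 1 model gave 26 and 7. Shares of all genes are not given for DESeq2, for fewer libraries or for the model of all libraries.

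The levels of *Commd10*Null embryos were also set beside those of WT embryos of the stage before. *Nppa*, at 0, 2.17 and 0 CPM in *Commd10*Null E9.5, was at 0 to 4.00 CPM in WT E8.5 embryos, and at E10.5 its 12.5, 28.7 and 17.9 CPM compare with 15.6 to 35.5 CPM in WT E9.5. *Pln*, at 6.76, 5.93 and 4.53 CPM in *Commd10*Null E10.5, compares with 2.48 to 6.60 CPM in WT E9.5. *Myl2*, at 14.1, 34.4 and 1.09 CPM in *Commd10*Null E9.5, compares with 1.27 to 25.8 CPM in WT E8.5, so that replicate 2 lay above that range, replicate 3 below it and replicate 1 within it. At E10.5 the order was another: *Myl2*, at 259, 401 and 326 CPM in *Commd10*Null embryos, lay above the 60.8 to 114 CPM of WT E9.5, and *Tnni3*, at 65.8, 122 and 110 CPM, above 17.6 to 33.4 CPM. *Myl7* was at 895 CPM or more in *Commd10*Null E10.5 and at most 398 CPM in any WT library of any stage. These comparisons cross stages and were not tested.

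The difference between genotypes itself changed with stage. Tested as an interaction in 1 model of all 32 libraries, the *Commd10*Null effect was higher at E10.5 than at E8.5 in 33 of 39 members, beside 10.3% of all 15057 genes, with a median of 4.65. It was higher at E9.5 than at E8.5 in 21 members, beside 6.24% of all genes, and higher at E10.5 than at E9.5 in 6, beside 3.63%. *Myh6* shifted by 6.74 ± 1.39 SE between E8.5 and E10.5 (adjusted p = 0.000880), *Ttn* by 5.89 ± 1.18 SE (adjusted p = 0.000670) and *Rbm24* by 2.58 ± 0.49 SE (adjusted p = 0.000359). The 6 members with a further shift after E9.5 were *Nppa*, *Myl2* (3.80 ± 0.82 SE), *Tnni3* (3.32 ± 0.82 SE), *Myl3* (3.02), *Atp2a2* (1.16) and *Tpm1* (1.04). *Des*, *Cryab*, *Tagln*, *Pln*, *Casq2* and *Nppa* did not pass between E8.5 and E10.5. The count of 33 lay between 32 and 33 without any single library, whereas the count of 21 ranged from 4 to 28. It was 4 without *Commd10*Null E8.5 replicate 3, 5 without E8.5 replicate 1 and 7 without E9.5 replicate 1. This model shares 1 spread estimate per gene over all stages, but the stages varied unequally. In WT embryos the summed level had an SD of 1158 CPM at E8.5, 351.5 at E9.5 and 476.6 at E10.5. The SEs and p-values of the interactions may therefore understate the spread at E8.5.

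Pairs of related genes were followed as log2 ratios, which do not depend on library scaling apart from the 0.5 CPM added to each level. In the light chain pairs, *Myl2* and *Myl3* are the ventricular genes and *Myl7* and *Myl4* the atrial ones. All ratios are descriptions, with no test. The ratio of ventricular *Myl2* to *Myl7* averaged -4.00 ± 1.56 (SD, n = 10) in WT embryos at E8.5, -1.53 ± 0.27 (n = 9) at E9.5 and -0.36 ± 0.34 (n = 4) at E10.5. In *Commd10*Null embryos it was -5.08 ± 1.21, -5.11 ± 1.18 and -1.86 ± 0.15 (SD, n = 3 each), below the WT mean of the same stage each time. The ratio of *Tnni3* to *Tnni1* in WT was -3.72 ± 0.46, -1.84 ± 0.23 and -1.75 ± 0.25, and in *Commd10*Null embryos -2.16 ± 1.78, -3.51 ± 0.46 and -1.94 ± 0.16. At E10.5 the 2 genotypes thus lay within the spread of the libraries for troponin I, but not for the regulatory light chains. *Myl3* to *Myl4* averaged -0.60 ± 0.62, 0.42 ± 0.16 and 0.71 ± 0.09 over the stages in WT and 0.10 ± 1.19, -0.64 ± 0.44 and 0.43 ± 0.10 in *Commd10*Null embryos, whose mean was thus higher at the earliest stage and lower at the later ones. *Myh6* to *Myh7* averaged 0.45 ± 0.53, 0.46 ± 0.32 and -0.03 ± 0.26 in WT and -1.04 ± 0.91, 1.05 ± 0.84 and -0.19 ± 0.11 in *Commd10*Null embryos, with overlapping libraries at each stage.

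**Figure D5:**
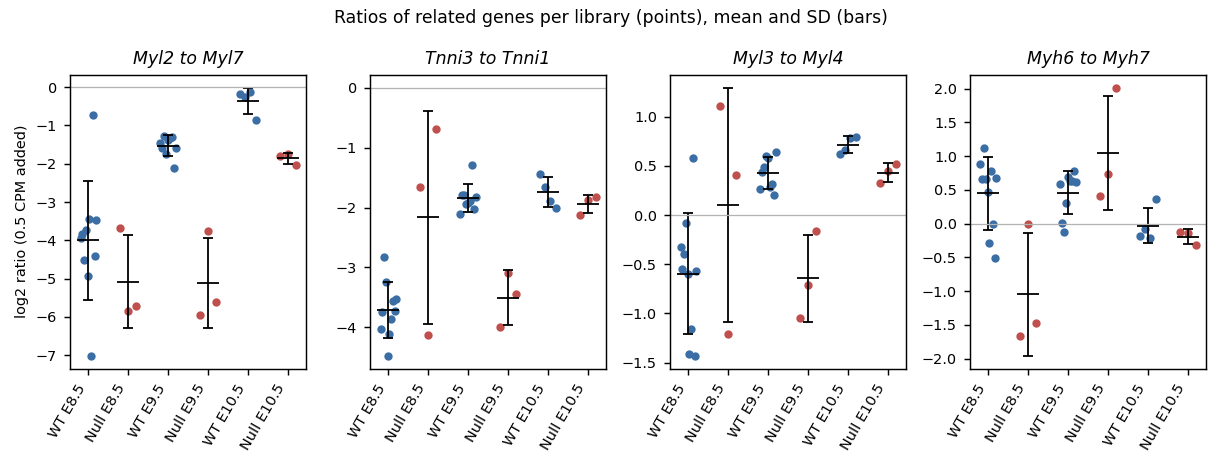
Log2 ratio of the levels of 4 gene pairs in every library (points, 0.5 CPM added) by genotype and stage, with the mean and SD of each group as bars. For *Myl2* to *Myl7* the WT means are -4.00, -1.53 and -0.36 and the *Commd10*Null means -5.08, -5.11 and -1.86.

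Tags near a 3′ end can belong to a neighbour. In the last 1000 bases of the 40 genes, 1 (*Myom1*) shares its strand with another annotated gene, and 11 have a gene on the other strand (*Myh6*, *Myh7*, *Myl2*, *Tnnc1*, *Actc1*, *Des*, *Pln*, *Slc8a1*, *Unc45b*, *Nppa* and *Tagln*). No source used here says if the counting was stranded, so the values of these 12 genes, *Pln* and *Nppa* included, may hold tags of the neighbour.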

How the data were processed

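Whole embryos of 2 genotypes and 3 stages were profiled by QuantSeq 3′ sequencing, in which a library holds tags from near the 3′ ends of transcripts. The authors trimmed reads (Trimmomatic 0.35 per the labels, another trimmer per the study's methods), used STAR for alignment to the coding part of mm10 and deposited counts per Ensembl gene, without normalization. The counting tool and its strand setting were not given in the sources used here. Samples were grouped by GEO's labels, and 0 value columns were without a sample.

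Symbols came from GENCODE vM21, which named 52081 of the 55414 identifiers. Differences were fitted on the deposited counts with edgeR 4.0.16 (R 4.3.3, quasi-likelihood test, TMM factors, filterByExpr with a minimum count of 10 and a minimum total of 15), using the libraries of the groups compared, and interactions used all 32 libraries. Benjamini-Hochberg adjustment ran over every gene in a fit. The test was also run on simulated data with the same spread for every gene. That run does not check the test on libraries as uneven as those of WT E8.5. Per-library levels are CPM, and gene-pair ratios had 0.5 CPM added. Library totals limit precision: at about 7025188 to 9069005 counts, a gene at 1 CPM rests on few tags.

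All 40 members and the other gene lists were chosen with earlier results of these data known. Full values are given for the members with the smallest p in each role (up to 2) and for both genes of each pair. Other lists are given by counts, with up to 4 genes of the smallest p. Alternatives were DESeq2 1.42.0 or its size factors, no factors, other filters, leaving out globin genes or the most abundant identifier, leaving out each library, 1 model of all libraries, a replicate block, a minimum change of 1 on the log2 scale, and other added values in the ratios. Figures were drawn with matplotlib 3.10.9 (Python 3.11.15).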

Additional observations from a re-analysis of the deposited data

Results flagged for a closer look

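WT groups alone were checked for a single library far from the others, because the *Commd10*Null groups hold too few libraries for this check. Among 75 groups of values, 4 such cases were found, where chance gives about 1 in 20. In WT E9.5 embryos these were replicate 8 for *Myh6*, at 77.4 CPM, and replicate 7 for *Tnni3*, at 33.4 CPM, which also had the highest log2 ratio of *Tnni3* to *Tnni1*, at -1.30. In WT E10.5 embryos, replicate 1 had a summed level of the 40 members of 3520 CPM. That library also had visceral endoderm markers at 1235 CPM, against 65.99 to 74.27 CPM in the other WT E10.5 libraries.

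The genotype effect differed between stages by edgeR's quasi-likelihood interaction test. It was higher at E9.5 than at E8.5 in 21 members, beside 6.24% of all 15057 genes. It was higher at E10.5 than at E8.5 in 33, beside 10.3%, and at E10.5 than at E9.5 in 6, beside 3.63%. With any single library left out, these counts ranged from 4 to 28, from 32 to 33 and from 4 to 9. The test uses a spread estimate shared over all stages, so its p-values may understate the spread at E8.5. Among the members described in full, the difference between E10.5 and E8.5 on the log2 scale was 4.65 for *Myl7*, 6.74 for *Myh6*, 5.69 for *Myh7*, 4.80 for *Myl2*, 5.38 for *Myl3* and 5.48 for *Myl4* in the thick filament. It was 3.58 for *Acta2*, 4.35 for *Tnni1* and 3.09 for *Tnni3* in the thin filament, and 5.89 for *Ttn* and 4.85 for *Nebl* in the scaffold. For calcium handling it was 5.22 for *Slc8a1* and 4.34 for *Ryr2*, for the chaperone *Unc45b* 5.38, and for the regulators *Rbm24* and *Myocd* 2.58 and 4.45. *Sh3bgr* differed by 5.64 and *Popdc2* by 3.42.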

How the results depend on the processing

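The counts below are of members only, without the share of all genes called under the same alternative. Members higher at E10.5 (36) stayed between 31 and 36 under every alternative. Counts that moved by over 1.5 times were as follows, and the cause was not tested unless fewer libraries or genes entered by construction. Members lower at E8.5 (3) were 11 with DESeq2, 15 without a filter and 23 with all 32 libraries in 1 model, and 0 to 21 with 1 library left out. Members higher at E9.5 (11) were 6 without factors, 5 with all 32 libraries, and 5 to 26 with 1 left out; members lower there (4) were 3 to 6 with 1 left out. Members lower at E10.5 (2) were 0 with all 32 libraries or a minimum change of 1, and 1 to 3 with 1 left out. In WT embryos, members lower at E9.5 than at E8.5 (3) were 1 with a minimum change of 1. At E10.5 against E9.5, members higher (4) were 0 with all 32 libraries and 2 with the minimum change, and members lower (15) were 1 and 1, and 8 to 18 with 1 left out. In *Commd10*Null embryos the counts of 0 became 8, 20 and 26 for the first step and 10, 14 and 7 for the second with DESeq2, no filter and all 32 libraries, and ranged from 0 to 20 and from 0 to 8 with 1 library left out. The interaction counts ranged from 4 to 28 (E9.5 against E8.5) and from 4 to 9 (E10.5 against E9.5) with 1 left out. With 0.1 CPM added, *Myh6* to *Myh7* in *Commd10*Null E8.5 embryos was -2.29 and *Tnni3* to *Tnni1* in WT E8.5 embryos -4.30, and the latter was -3.02 with 2 CPM added.

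With the replicate block, 26 members were lower at E8.5, 0 were higher and 1 lower at E9.5, 20 rose from E8.5 to E9.5 in WT embryos, and 8 and 14 had an interaction (E9.5 against E8.5 and E10.5 against E9.5). Libraries of the same number did not deviate together (correlations -0.12 to 0.156), so they share only a number. Estimates that changed sign, none of them a called value, were at E8.5 *Des* (-0.10), *Cryab* (-0.29) and *Tagln* (-0.60) under the block, and *Tagln* without factors (-0.014) and without a filter (-0.0052). At E9.5 they were *Mybpc3* (-0.14), *Ldb3* (-0.078), *Des* (-0.49) and *Slc8a1* (-0.0051) under the block, and *Ldb3* (-0.044) and *Des* (-0.088) without factors.

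With 1 library left out, estimates that spanned 0 at E8.5 were those of *Cryab* (-0.20 to 1.01), *Rbm24* (-0.92 to 0.077) and *Tagln* (-0.27 to 0.26). At E9.5 they were *Mybpc3* (-0.49 to 0.68), *Tnnc1* (-0.094 to 1.03), *Actc1* (-0.76 to 0.21), *Actn2* (-0.90 to 0.16), *Ldb3* (-0.38 to 0.56), *Csrp3* (-1.40 to 0.34), *Des* (-0.72 to 0.64), *Slc8a1* (-0.12 to 0.77), *Hspb7* (-0.48 to 0.66), *Smyd1* (-0.17 to 0.73), *Ankrd1* (-0.0046 to 0.82) and *Tagln* (-1.04 to 0.023), and for E10.5 against E8.5 the interaction of *Casq2* (-2.76 to 0.16). With 3 *Commd10*Null libraries a stage, and few counts for *Nppb*, *Casq2*, *Tcap* and *Pln*, small differences were not detectable at this depth.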
